A study of Mus musculus with 8 samples.

Results

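Lhx1, the gene known as Lim1 in the study, and 7 genes that act beside it in the early nephron (Pax8, Wnt4, Fgf8, Sim1, Dkk1, Ldb1 and Bcl2) were followed in embryonic mouse kidneys. Every probe set whose only gene symbol on the platform was one of these 8 was taken, which gave 17 of 45101 probe sets, for 8 of 18194 named genes. Lhx1, Pax8, Wnt4, Sim1 and Dkk1 had 2 probe sets each, Bcl2 had 5, and Fgf8 and Ldb1 had 1 each. Whole kidneys were pooled by genotype and stage before RNA was made, and each pool was hybridized to 2 Affymetrix mouse arrays. The mutant pools came from 9 embryos at E18.5 and 17 at E14.5 with the genotype Lim1flox/lacZ; Rarb2-Cretg/+, and the control pools from 14 embryos at E18.5 and 23 at E14.5 with the genotype Lim1flox/+; Rarb2-Cretg/+. Rarb2-Cre drives recombination in the metanephric mesenchyme, so nephron precursors of the mutant lose Lim1. The ureteric bud, which the transgene does not target, keeps the floxed allele, and in the mutant its other allele is the lacZ null. Control kidneys also carry the Cre transgene and 1 floxed allele, so their mesenchyme can lose 1 copy of the gene. The strains were C57BL/6J crosses with 129/SvEv or SJL/J. Both arrays of a pool are target preparations from 1 RNA, so each condition has 1 biological replicate (n = 1 pool, 2 technical arrays) and no test between 2 single pools was made.

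The renal vesicle is the first epithelial stage of the nephron. It forms when mesenchyme beside a ureteric bud tip is induced by Wnt signals, condenses and becomes epithelial, and it then gives rise to the comma-shaped and S-shaped bodies and to all segments from the podocytes to the distal tubule. In mouse, Fgf8 and Wnt4 are needed in the pretubular aggregate for this step, and Lhx1, a LIM homeodomain transcription factor, is needed after it for patterning of the vesicle. Ldb1 binds the LIM domains of such factors, Pax8 is a paired-box factor of the nephric lineage, Dkk1 is a secreted antagonist of Wnt coreceptors, Sim1 is a bHLH-PAS transcription factor, and Bcl2 protects cells from apoptosis.

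The genes lie on 6 mouse chromosomes (GRCm38.p6, RefSeq). Lhx1 spans chr11:84517975-84525534, Pax8 chr2:24420551-24475599, Wnt4 chr4:137277635-137299501 and Sim1 chr10:50894698-50989156. Fgf8 at chr19:45736491-45742941, Ldb1 at chr19:46031525-46048145 and Dkk1 at chr19:30545876-30549496 share a chromosome, and Bcl2 spans chr1:106538176-106714290.

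The 250 bases before the annotated start are printed for Lhx1, as the deleted gene, and for Wnt4 and Dkk1, as the Wnt ligand and the Wnt antagonist among these genes. They come from RefSeq (GRCm38.p6), read 5' to 3' on the gene's own strand, with motif matches in capitals. The Lhx1 window is chr11:84525535-84525784 (minus strand), the Wnt4 window chr4:137277385-137277634 (plus strand) and the Dkk1 window chr19:30549497-30549746 (minus strand).
Lhx1: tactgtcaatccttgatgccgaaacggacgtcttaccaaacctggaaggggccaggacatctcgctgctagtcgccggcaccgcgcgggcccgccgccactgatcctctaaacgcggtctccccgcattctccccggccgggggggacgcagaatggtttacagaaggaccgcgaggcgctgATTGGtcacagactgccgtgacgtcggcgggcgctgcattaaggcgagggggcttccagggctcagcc
Wnt4: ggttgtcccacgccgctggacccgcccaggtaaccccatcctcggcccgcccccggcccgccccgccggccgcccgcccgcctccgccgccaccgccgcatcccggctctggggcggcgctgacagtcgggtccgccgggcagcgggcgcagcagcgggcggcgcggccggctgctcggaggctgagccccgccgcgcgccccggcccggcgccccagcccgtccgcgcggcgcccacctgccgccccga
Dkk1: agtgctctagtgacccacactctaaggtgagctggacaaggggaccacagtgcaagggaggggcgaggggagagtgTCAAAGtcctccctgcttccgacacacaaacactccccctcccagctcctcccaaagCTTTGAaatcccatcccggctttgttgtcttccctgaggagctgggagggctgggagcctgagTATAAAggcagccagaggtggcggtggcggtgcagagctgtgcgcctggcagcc
The search covered both strands for CTTTGA, the core bound by TCF/LEF factors, for TAATTA, a core of LIM homeodomain factors, for ACGTG, a core of bHLH-PAS factors, for TATAAA, the TATA box, and for CCAAT, the box of that name. No match overlapped another in the 3 windows, and a match on the opposite strand is printed as its reverse complement. Dkk1 held 2 TCF/LEF cores, 174 to 169 and 117 to 112 bases before its start, and a TATA box 54 to 49 bases before it. Lhx1 held 1 CCAAT box, 68 to 64 bases before its start, and Wnt4 held none of the 5. Among 27025 RefSeq promoter windows of the same length, 14.0% held a TCF/LEF core, 4.9% a LIM homeodomain core, 16.6% a bHLH-PAS core, 13.0% a TATA box and 34.5% a CCAAT box. A match describes the letters alone, and binding was not measured.

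Signals are model-based linear intensities normalized between arrays, with array medians of 225 to 243, which are not the medians stated in the study's methods. Duplicate arrays correlated with r between 0.98 and 0.99 on the log2 scale, across probe sets that are not independent of each other. The median fold between duplicates was 1.16 in the E18.5 mutant pool, 1.08 in the E18.5 control pool, 1.09 in the E14.5 mutant pool and 1.11 in the E14.5 control pool, so the E18.5 mutant arrays lay farthest apart. Probe sets of the 8 genes had a median duplicate fold of 1.18 in the E18.5 mutant pool and of 1.05 to 1.13 in the other pools. A probe set met the criteria of size, after those of the study, when the ratio of pool means was at least 2 and exceeded the fold between duplicates of both pools, when the higher mean times the ratio exceeded 100, and when both arrays of the higher pool reached the 40th percentile of their array (177 to 194 units). As the technical error of a ratio, its range over the 4 pairings of arrays is given, which holds no spread between embryos or pools. By mean signal, 13 of 17 probe sets reached the 40th percentile; those of Fgf8 and 1 each of Dkk1, Pax8 and Bcl2 did not.

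Of the 17 probe sets, 1 met the criteria in the comparison of genotypes, at each stage: Sim1 1449967_at, lower in mutants. At E18.5, 0 were higher and 1 lower in mutants, against 0.0931% and 1.27% of all probe sets on the array. At E14.5, 0 were higher and 1 lower, against 0.00222% and 0.0732%. This E14.5 count was 0 with the 50th percentile as minimum signal, with 50 units added to each signal, with the brightest probe set only and without E14.5 control replicate 2, and the E18.5 count was 0 with the brightest probe set only. Lower at both stages was 0.0466% of all probe sets. At either stage 15 of 17 probe sets were within 1.5-fold of the control, a count for which the share of all probe sets was not computed. The mutant arrays both lay above the control arrays for 9 probe sets and below for 3 at E18.5, where 24.5% and 17.6% of all probe sets did so. The corresponding counts at E14.5 were 5 and 5, against 17.4% and 19.7% of all probe sets. Probe sets of 1 gene are not independent of each other. By the brightest probe set of each of the 8 genes, 4 lay above and 1 below at E18.5, against 22.8% and 21.1% of all named genes. At E14.5 2 genes lay above and 2 below, against 21.8% and 15.8%. Median log2 ratios of mutant over control were 0.21 over the 17 probe sets and 0.05 over all probe sets at E18.5, and 0.04 and -0.01 at E14.5. In whole kidneys, fewer cells of a type and less RNA per cell cannot be told apart.

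**Figure D1:**
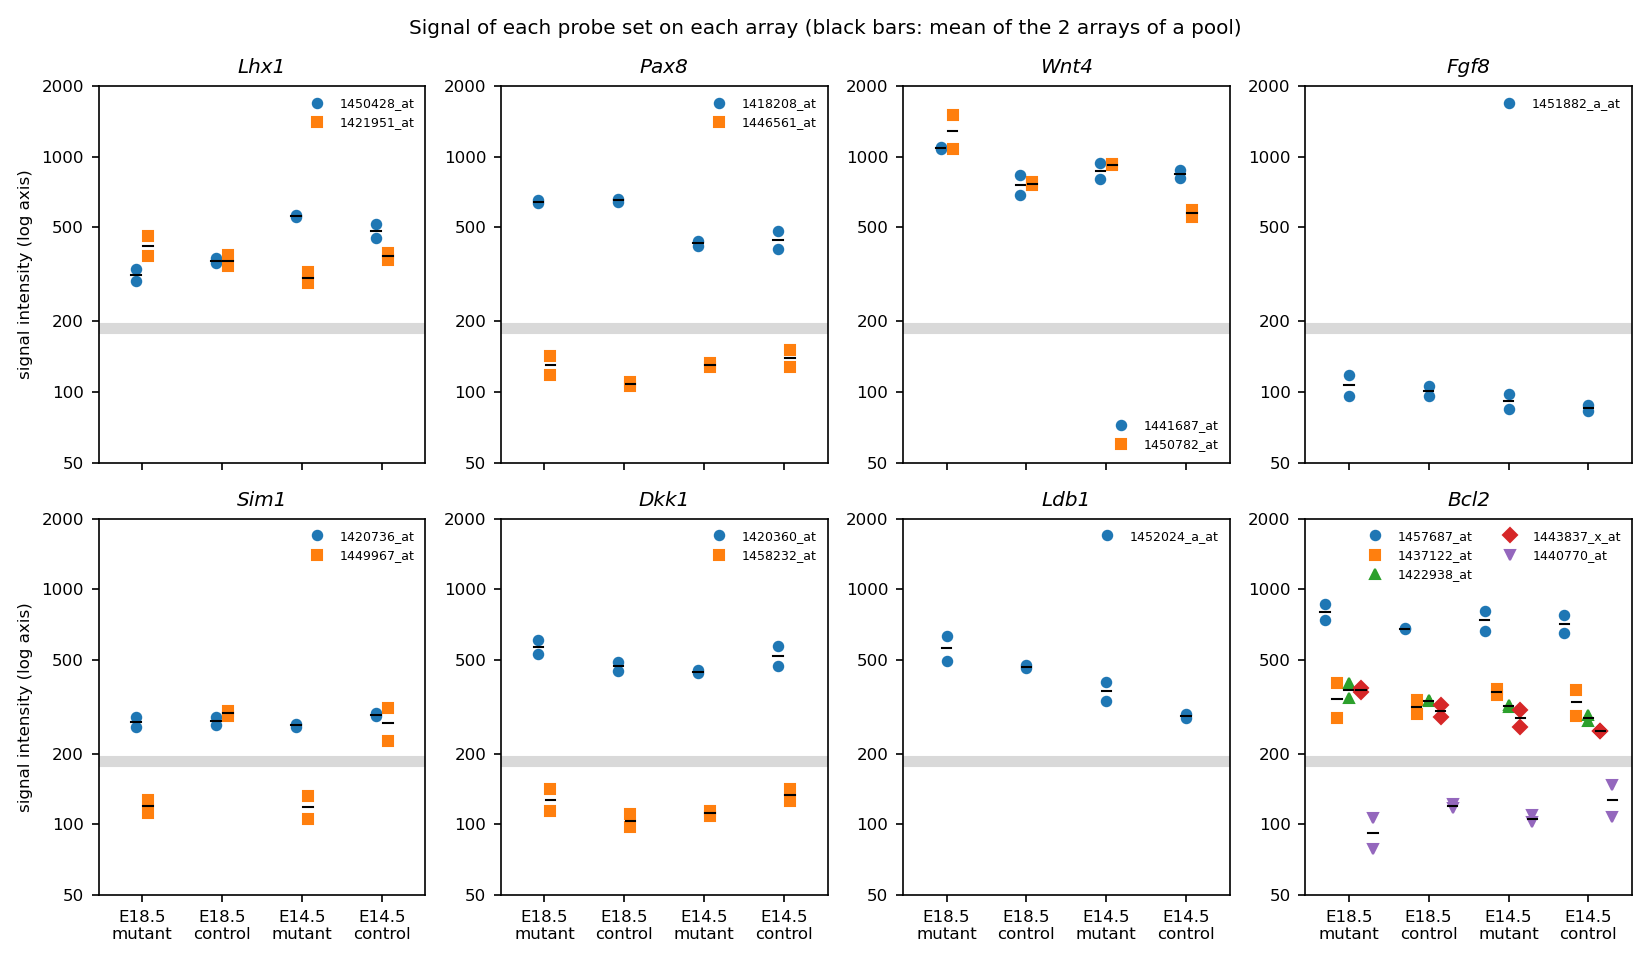
Signal intensity (log axis) of each probe set on each of the 8 arrays, 1 panel per gene, with mutant pools left of control pools at each stage. Points are arrays, black bars the mean of the 2 arrays of a pool, and the grey band spans the 40th percentiles of the arrays; Sim1 1449967_at lies below the band on all 4 mutant arrays and above it on all 4 control arrays.

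Lhx1 itself, the gene removed in the mutant, was not lower in mutants by both probe sets at either stage. Probe set 1450428_at gave 296 and 333 units on the E18.5 mutant arrays, against 370 and 352 on the E18.5 control arrays. On the E14.5 mutant arrays it gave 563 and 554, against 449 and 517 on the E14.5 control arrays. The mutant was thus below the control at E18.5 and above it at E14.5 with no overlap of arrays, with ratios of 0.87 (range over pairings 0.8 to 0.944) and 1.16 (1.07 to 1.25). Probe set 1421951_at ran the other way. It gave 459 and 379 units on the E18.5 mutant arrays, against 342 and 382 on the E18.5 control arrays, with overlap and a ratio of 1.16 (0.992 to 1.34). At E14.5 it gave 323 and 289.8 on mutant arrays, against 388 and 365 on control arrays, without overlap and with a ratio of 0.813 (0.746 to 0.885). All 4 ratios were within 1.5-fold. Mutant arrays below control arrays at E18.5 and above them at E14.5 were found for 3.75% of all probe sets.

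The 2 Lhx1 probe sets are assigned to the same transcript by the platform, yet their log2 signals over the 8 arrays ran opposite (r = -0.77, n = 8 arrays of 4 pools, a description). Neither the position of the probes in Lhx1 nor that of the deleted part is given in the sources used here, so these signals check neither the labels nor the recombination. Over 5591 genes with at least 2 probe sets that reached the minimum signal, the 2 brightest had ratios of opposite sign in 32.1% of genes in the E18.5 comparison of genotypes and in 44.6% in the E14.5 one. At E18.5 the gap between the 2 Lhx1 log2 ratios was 0.41 and at E14.5 it was 0.51, at the 89.0th and 97.3rd percentile of those genes. By the order of pool means, 1450428_at was highest in the E14.5 mutant pool, then E14.5 control, E18.5 control and E18.5 mutant, and no neighbouring pools in that order overlapped. For 1421951_at the order was E18.5 mutant, E14.5 control, E18.5 control and E14.5 mutant, and the arrays of the first 3 pools overlapped.

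Wnt4, the ligand of the pretubular aggregate, had the largest ratios above 1 among the 8 genes. Probe set 1450782_at gave 1082 and 1499.9 units on the E18.5 mutant arrays, against 779 and 756 on the E18.5 control arrays. At E14.5 it gave 919 and 929.7 on the mutant arrays, against 556 and 594 on the control arrays. Mutant arrays lay above control arrays at both stages, as for 4.67% of all probe sets, with ratios of 1.68 (1.39 to 1.99) and 1.61 (1.55 to 1.67), below the 2-fold criterion. The other Wnt4 probe set, 1441687_at, gave 1096 and 1082 on the E18.5 mutant arrays, against 686 and 834 on the E18.5 control arrays, a ratio of 1.43 (1.3 to 1.6). At E14.5 it gave 942 and 806 on mutant arrays, against 815 and 881 on control arrays, with overlap and a ratio of 1.03 (0.914 to 1.16). The gap between the E14.5 log2 ratios of the 2 probe sets, 0.64, lay at the 99.2nd percentile of the genes with at least 2 probe sets, and that at E18.5, 0.23, at the 70.4th.

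Dkk1, the Wnt antagonist, was above the control in E18.5 mutants and below it in E14.5 mutants by both of its probe sets. Probe set 1420360_at gave 528 and 606 units on the E18.5 mutant arrays, against 447 and 493 on the E18.5 control arrays, a ratio of 1.21 (1.07 to 1.36). At E14.5 it gave 439 and 451 on the mutant arrays, against 469.8 and 571 on the control arrays, a ratio of 0.855 (0.769 to 0.961). The dim probe set 1458232_at, below the minimum signal, gave ratios of 1.23 (1.03 to 1.45) at E18.5 and 0.833 (0.767 to 0.908) at E14.5. Groups of arrays did not overlap in any of these 4 comparisons, and 4.95% of all probe sets showed this order at the 2 stages. The ratios were within 1.5-fold, and the E18.5 and E14.5 effects were not tested against each other.

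Fgf8, the growth factor that acts upstream of Wnt4 and Lhx1 in mouse nephrons, was near the bottom of the signal range. Its probe set 1451882_a_at gave 95.8 and 118 units in E18.5 mutants, against 95.5 and 105 in E18.5 controls, and 97.7 and 84.2 in E14.5 mutants, against 87.5 and 82.6 in E14.5 controls. These signals ranked between the 12.4th and 24.3rd percentile of their arrays, the groups overlapped at both stages, and a difference in Fgf8 was not detectable at this signal.

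Sim1 was the gene whose 2 probe sets differed most in the ratio of mutant over control. Probe set 1449967_at gave 112 and 126 units on the E18.5 mutant arrays, against 290.1 and 304 on the E18.5 control arrays. At E14.5 it gave 132 and 106 on the mutant arrays, against 226 and 313 on the control arrays. Control signals were 2.49-fold (2.3 to 2.71) those of mutants at E18.5 and 2.27-fold (1.72 to 2.96) at E14.5, with no overlap. All mutant arrays lay below the 40th percentile, down to the 18.6th, so the size of these folds depends on a dim signal, and with 50 units added the E18.5 fold was 2.05. Only at E14.5, where the control duplicates differed 1.38-fold, did a pairing fall below the 2-fold criterion. Mutant arrays lay below control arrays at both stages for 3.11% of all probe sets.

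The other Sim1 probe set, 1420736_at, which the platform assigns to the same transcript, did not show this difference. It gave 287 and 258 units on the E18.5 mutant arrays, against 287 and 264 on the E18.5 control arrays, a ratio of 0.99 (0.9 to 1.09). At E14.5 it gave 266 and 260.0 on the mutant arrays, against 289 and 297 on the control arrays, a ratio of 0.898 (0.875 to 0.922) without overlap. At E18.5 the log2 ratios of the 2 probe sets lay 1.3 apart and at E14.5 they lay 1.03 apart, at the 99.3rd and 99.9th percentile of genes with 2 probe sets. By the brightest probe set of each gene, none of the 8 genes met the criteria in either comparison of genotypes, against 0.0989% of 18194 genes higher and 1.75% lower in E18.5 mutants, and 0.0% higher and 0.0715% lower in E14.5 mutants.

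**Figure D2:**
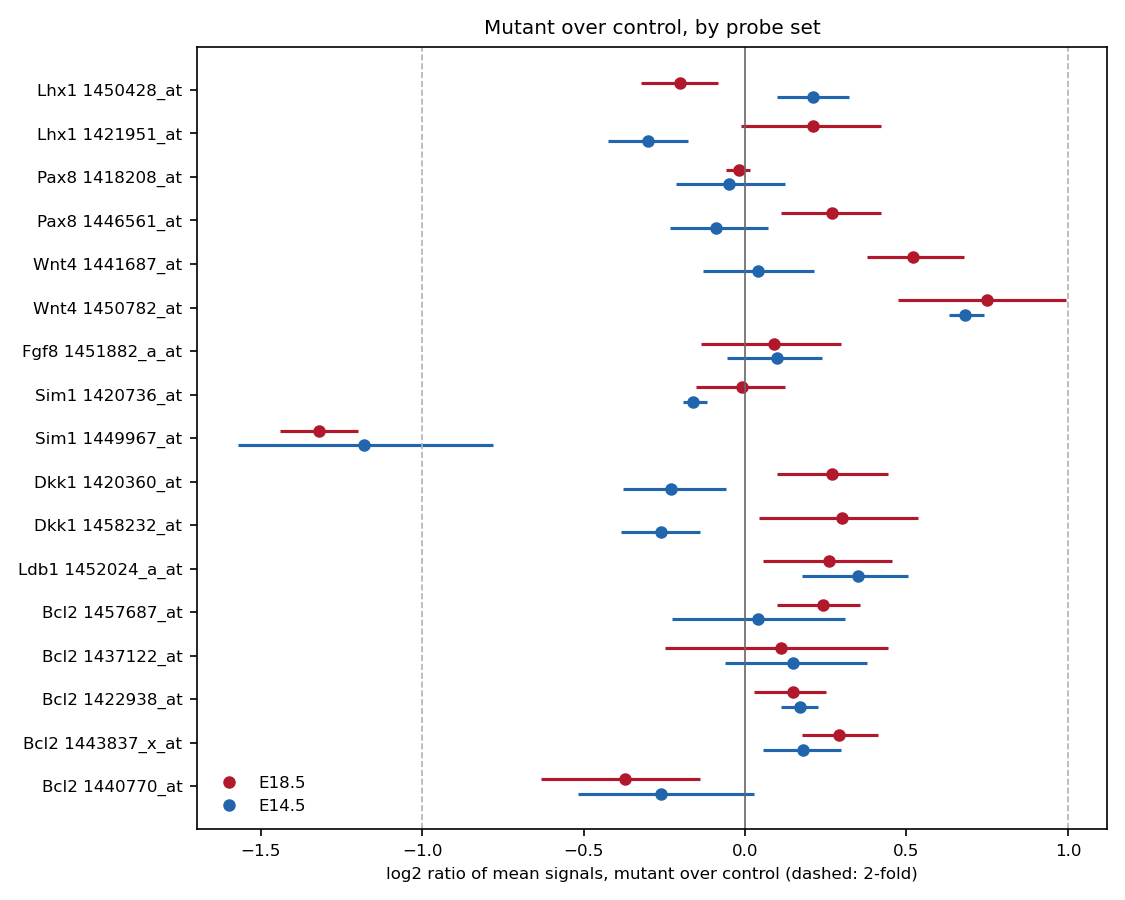
Log2 ratio of mutant over control pool means for each of the 17 probe sets, E18.5 in red and E14.5 in blue, with lines spanning the 4 array pairings. Sim1 1449967_at is the 1 probe set past the dashed 2-fold line, at 0.401 and 0.44 of the control, while Sim1 1420736_at lies near 0.

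Pax8, a regulator of the nephric lineage, did not separate the genotypes by its brighter probe set. Probe set 1418208_at gave 637 and 652 units in E18.5 mutants, against 645 and 664 in E18.5 controls, and 440.1 and 418 in E14.5 mutants, against 484 and 405 in E14.5 controls, with overlap at both stages. The ratios were 0.985 (0.96 to 1.01) and 0.965 (0.862 to 1.09). The dim 1446561_at gave 1.21 (1.08 to 1.34) and 0.94 (0.851 to 1.05), and it did not reach the minimum signal on any array.

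Ldb1, the cofactor that bridges LIM homeodomain factors, was higher in mutants at both stages without overlap of arrays, by less than 1.5-fold. Probe set 1452024_a_at gave 496 and 631 units in E18.5 mutants, against 476 and 461 in E18.5 controls, a ratio of 1.2 (1.04 to 1.37). In E14.5 mutants it gave 404 and 334, against 295 and 284 in E14.5 controls, a ratio of 1.27 (1.13 to 1.42).

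Bcl2 was measured by 5 probe sets, of which 4 had ratios above 1 at both stages. Probe set 1422938_at gave 345 and 398 units in E18.5 mutants, against 333 and 337 in E18.5 controls, and 320.3 and 316 in E14.5 mutants, against 293 and 274 in E14.5 controls. Its ratios were 1.11 (1.02 to 1.19) and 1.12 (1.08 to 1.17), and those of 1443837_x_at were 1.22 (1.13 to 1.33) and 1.14 (1.04 to 1.23), without overlap for either probe set at either stage. The ratios of 1457687_at, 1.18 and 1.03, and of 1437122_at, 1.08 and 1.11, were accompanied by overlap at E14.5, and for 1437122_at also at E18.5. The dim 1440770_at had ratios of 0.773 and 0.834. Of the 17 probe sets, 4 thus had mutant arrays above control arrays at both stages (Wnt4 1450782_at, Ldb1 and 2 of Bcl2), against 4.67% of all probe sets, and 1 had them below, Sim1 1449967_at, against 3.11%.

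A fit with additive terms for genotype and stage over the 4 pool means (limma, 1 residual degree of freedom) used 13 of these probe sets among 27061 tested. It called none of them for genotype, and none elsewhere on the array either (0.0% higher in mutants at an adjusted p under 0.05). Slc34a1, a proximal tubule marker with E18.5 control signals 63.5-fold those of E18.5 mutants, was also not called. A missing call in this fit thus does not show that a gene was unchanged. The estimated genotype effects were largest for Sim1 1449967_at, at -1.24 ± 0.12 on the log2 scale (SE, limma adjusted p = 1.0), and Wnt4 1450782_at, at 0.71 ± 0.11 (limma adjusted p = 1.0). Ldb1 followed at 0.3 ± 0.11 (limma adjusted p = 1.0). At an unadjusted p under 0.05, 3 of the 13 probe sets and 3.86% of all tested passed. Lhx1 had estimates of 0.01 ± 0.15 and -0.05 ± 0.16, since the fit assumes the same effect at both stages and so averages effects of opposite sign. Leaving out replicate 2 of the E18.5 mutant gave Sim1 1449967_at an adjusted limma p of 0.00465, with 71 probe sets called on the array.

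Between the stages, 2 of the 13 probe sets were called by limma, both higher at E18.5. Ldb1 had an E18.5 minus E14.5 estimate of 0.65 ± 0.11 on the log2 scale (limma adjusted p = 0.0386), and Pax8 1418208_at one of 0.57 ± 0.11 (limma adjusted p = 0.0471). Of all tested probe sets, 3.42% were called higher and 5.2% lower at E18.5. Ldb1 lay at 1.53-fold (1.23 to 1.89) of its E14.5 level in mutants and 1.62-fold (1.56 to 1.68) in controls. The Pax8 ratios were 1.5 (1.45 to 1.56) in mutants and 1.47 (1.33 to 1.64) in controls, so the E18.5 arrays lay above the E14.5 arrays in both genotypes. Neither reached 2-fold. The dim Pax8 probe set 1446561_at did not share this difference, with ratios of 0.998 (0.888 to 1.11) in mutants and 0.779 (0.707 to 0.863) in controls. Averaged over both probe sets, the Pax8 log2 ratios were 0.29 in mutants and 0.1 in controls. The calls lay close to the threshold, with adjusted p between 0.0186 and 0.0642 for Ldb1 and between 0.0287 and 0.083 for Pax8 over the alternatives tried.

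Wnt4 1450782_at was 1.4-fold (1.16 to 1.63) in mutants and 1.33-fold (1.27 to 1.4) in controls at E18.5 over E14.5 (estimate 0.44 ± 0.11, limma adjusted p = 0.0825), and did not pass. Lhx1 1450428_at was at 0.563 (0.525 to 0.601) of its E14.5 level in E18.5 mutants and at 0.747 (0.681 to 0.823) in E18.5 controls (estimate -0.62 ± 0.15, limma adjusted p = 0.0689). Lhx1 1421951_at had ratios of 1.37 (1.17 to 1.58) in mutants and 0.961 (0.881 to 1.05) in controls. The gap between the 2 Lhx1 probe sets in mutants, 1.28 log2 units, was at the 99.0th percentile of genes with 2 probe sets. These stage ratios use the same pools as the genotype ratios and are not independent of them.

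By the criteria of size, 0 of the 17 probe sets were called between stages in mutants, against 0.721% of all probe sets higher and 0.889% lower at E18.5. In controls 0 were called, against 2.55% higher and 1.85% lower. Arrays of E18.5 mutants lay wholly above those of E14.5 mutants for 8 probe sets and below for 1, against 26.0% and 23.9% of all probe sets. The counts in controls were 6 and 4, against 26.5% and 36.0%. By the brightest probe set of each gene, 4 genes lay above and 1 below in mutants, against 27.8% and 24.1% of all named genes. In controls 3 genes lay above and 2 below, against 31.9% and 30.4%. In both genotypes, 5 probe sets had all E18.5 arrays above all E14.5 arrays (Pax8 1418208_at, Wnt4 1450782_at, Ldb1 and 2 of Bcl2), as did 14.9% of all probe sets.

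**Figure D3:**
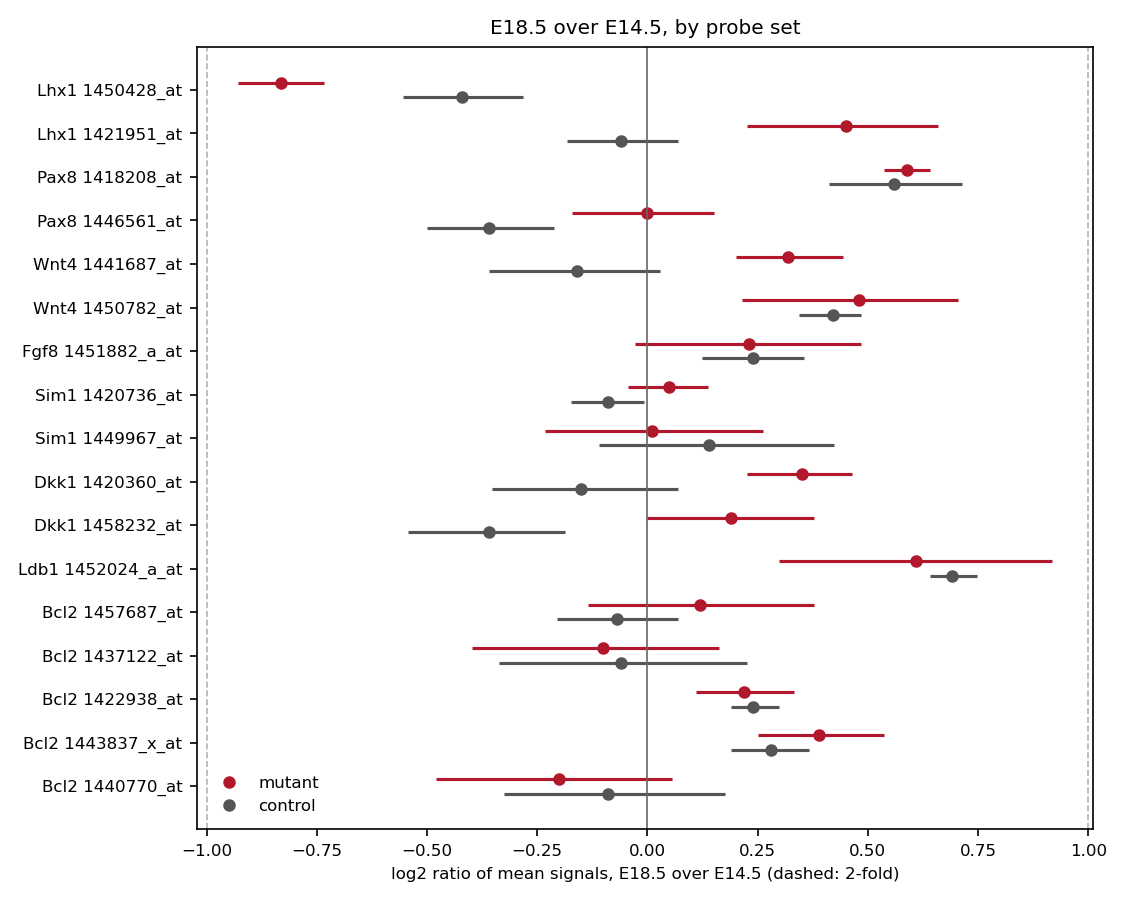
Log2 ratio of pool means, E18.5 divided by E14.5, for each of the 17 probe sets, mutant in red and control in grey, with lines spanning the 4 array pairings. No probe set reaches the dashed 2-fold lines, and Pax8 1418208_at and Ldb1 lie above 0 in both genotypes.

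Other gene lists place these values beside related genes, each read by its brightest probe set. Among 20 measured renal vesicle and early nephron genes, 2 met the criteria lower in E18.5 mutants, Papss2 and Irx2, against 1.75% of all named genes. Papss2, a sulfate donor synthase, had 284 units in mutants against 1089 in controls. Irx2, an Iroquois transcription factor of the intermediate nephron, had 138 against 424. At E14.5 1 met them lower, against 0.0715% of all named genes. It was Hes5, a target of Notch signalling, with 186 units in mutants against 497 in controls. Mutant arrays lay below control arrays for 13 of the 20 genes at E14.5 and above for 1, against 15.8% and 21.8% of all named genes, with a median log2 ratio of -0.21, against 0.01 over all named genes. At E18.5 they lay below for 9 and above for 9, against 21.1% and 22.8%, with a median of -0.02, against 0.03. By comparison, the 8 genes around Lhx1 by their brightest probe set had a median of 0.16 at E18.5 and one of 0.04 at E14.5. Jag1, a Notch ligand chosen after its values were seen, had ratios of 0.742 (0.633 to 0.86) at E18.5 and 0.625 (0.44 to 0.886) at E14.5.

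Wnt pathway genes did not meet the criteria in either comparison, in 16 measured genes. Their median log2 ratio at E18.5 was 0.02 and at E14.5 it was 0.07, and Ctnnb1, which encodes beta-catenin, gave 7041 units in E18.5 mutants against 6939.5 in E18.5 controls. None of 14 FGF pathway genes met them, with a median of 0.25 at E18.5, one of 0.02 at E14.5, and mutant arrays above control arrays for 7 and 6 genes (22.8% and 21.8% of all named genes) and below for 1 at each stage (21.1% and 15.8%). Receptor gene Fgfr2 had 1547 units in E18.5 mutants against 1299 in E18.5 controls, with overlap of arrays and ratios of 1.19 (0.828 to 1.71) at E18.5 and 0.953 (0.712 to 1.26) at E14.5. None of 13 partners and relatives of LIM factors met them either (medians 0.08 and 0.16), and Ssbp3, a partner of Ldb1, gave 1317 units in E18.5 mutants against 881 in E18.5 controls. The 4 measured partners of Pax and Sim factors had medians of 0.05 and 0.11, with 1.07 and 1.01 for Arnt, the partner of bHLH-PAS proteins. Of 11 measured Bcl2 family genes 0 met them, with medians of -0.04 and 0.05, and Mcl1, another survival gene, had ratios of 0.995 and 1.04. Of all named genes, 0.0989% met the criteria higher and 1.75% lower in E18.5 mutants, and 0.0% and 0.0715% in E14.5 mutants. The counts of 0 in these short lists are near those shares.

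**Figure D4:**
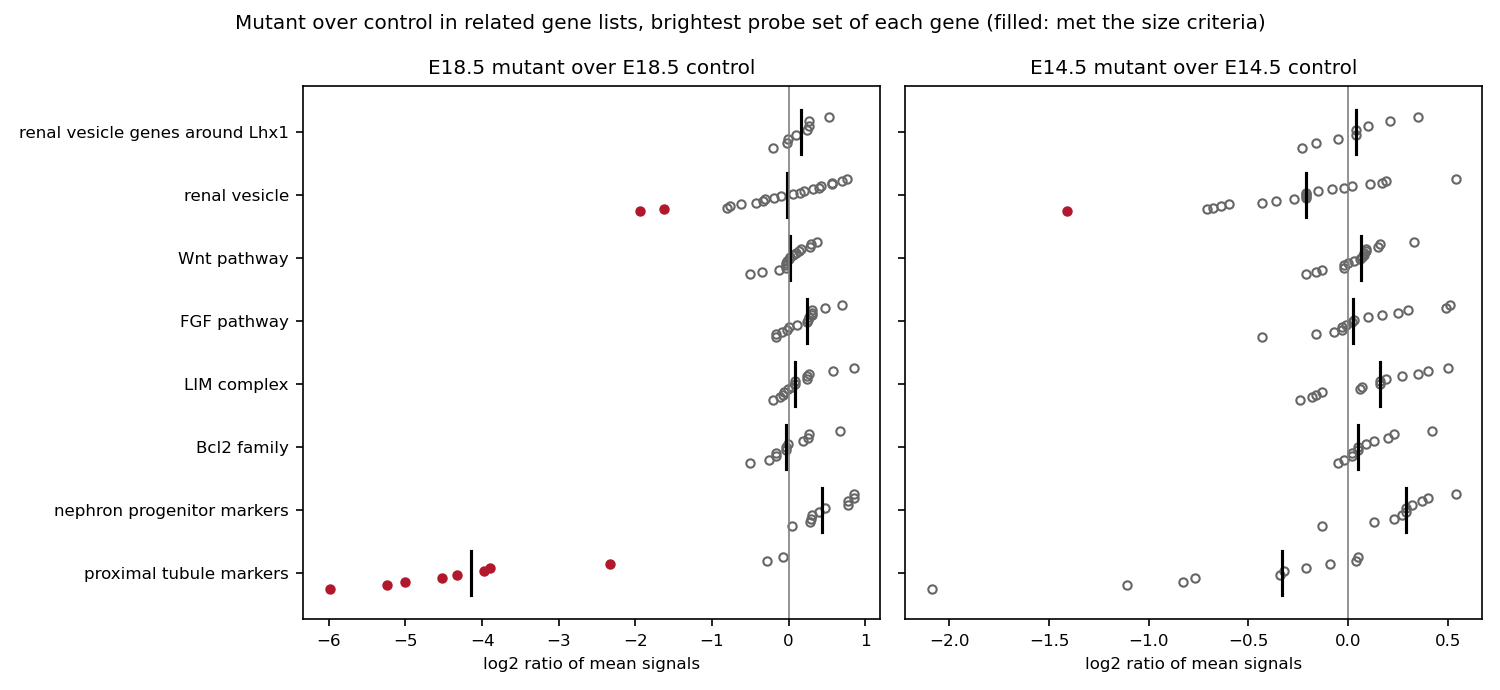
Log2 ratio of mutant over control pool means of the brightest probe set of each gene in 8 lists, E18.5 on the left and E14.5 on the right, on different scales. Each circle is a gene, filled where it met the criteria of size, and bars mark list medians. The 8 genes around Lhx1 hold no filled circle, while 8 of 10 proximal tubule markers are filled at E18.5. Of all named genes, 1.75% met the criteria lower in E18.5 mutants.

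Markers of some cell types that the pools can hold also differed between the genotypes. Nephron progenitor markers such as Six2 had all mutant arrays above all control arrays for 9 of 10 genes at E18.5 and 8 of 10 at E14.5, against 22.8% and 21.8% of all named genes. The summed signal of the 10 was 8191 to 9540 in E18.5 mutant arrays against 6231 to 6461 in E18.5 controls, and 9196 to 10102 in E14.5 mutants against 7705 to 8819 in E14.5 controls. Ureteric bud markers summed to 7362 to 7739 in E18.5 mutants against 6959 to 7178 in E18.5 controls, and overlapped at E14.5, with 6847 to 7112 in mutants against 6694 to 7261 in controls. Mutant arrays lay above control arrays for 5 of these 10 markers at E18.5 and 2 at E14.5, against 22.8% and 21.8% of all named genes. They lay below for 1 at each stage, Emx2 (ratios 0.683 and 0.643), against 21.1% and 15.8%. Of 10 proximal tubule markers 8 met the criteria lower in E18.5 mutants and 0 in E14.5 mutants, against 1.75% and 0.0715% of all named genes. Ratios of Cltrn, 0.235 (0.188 to 0.306), and Slc34a1, 0.463 (0.425 to 0.502), passed 2-fold at E14.5, but their control arrays did not both reach the minimum signal. At E14.5 mutant arrays lay below control arrays for 6 of the 10 markers and above for 0, against 15.8% and 21.8% of all named genes. The sums of the 10 were 2331 to 2399 in E18.5 mutants against 24644 to 25422 in E18.5 controls. At E14.5 they were 1849 to 2063 in mutants against 2466 to 2489 in controls. The 8 were Slc34a1, Lrp2, Cubn, Anpep, Aqp1, Fbp1, Slc22a6 and Cltrn, with E18.5 ratios of 0.0158 for Slc34a1, a phosphate cotransporter, to 0.199 for Aqp1, a water channel. No marker was listed at 0. Their part in the values of Wnt4, Sim1 and the other genes around Lhx1 was not tested.

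The 5 genes whose profiles over the 4 pools were closest to that of Lhx1 1450428_at, by the root mean square difference of log2 signals each centred on its mean, were Xrcc5 and Pbdc1 (0.011 each), Ddx39a (0.012), Cct8 (0.026) and Drg1 (0.029), of 13440 genes compared. With 4 values to a profile, such distances describe these pools only.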

How the data were processed

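Per the labels and the study's methods, the authors scanned the arrays and computed model-based signal intensity values in dChip, normalized between arrays by its invariant set method. The deposited table holds these linear intensities for 45101 probe sets on 8 arrays. The labels also name scaling in Microarray Suite after scanning; that the deposited values are those of dChip is taken from the methods. The array medians differ from those the methods state, for a reason not known here, so the absolute scale is uncertain. Raw probe data and detection calls were not used here. Platform gene symbols were updated through gene identifiers, which gave 34958 probe sets 1 gene.

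Duplicate arrays were averaged. Ratios were taken between arithmetic means of pools, and a minimum signal replaced the study's present calls. limma 3.58.1 (R 4.3.3) was run on log2(signal + 1) of the 4 pool means, with 1 residual and 3.91 prior degrees of freedom and Benjamini-Hochberg adjustment over the 27061 probe sets that reached a mean signal of 188. Other steps used Python 3.11.15. The steps were tested on simulated data. Those for limma had identical duplicates and the same genotype effect at both stages, so they do not cover effects of 1 stage. Having 1 RNA pool per condition limits the precision, since both arrays of a pool measure the same RNA. Alternatives were other minimum signals, normalizations, means, offsets and pseudocounts, the brightest probe set only, and each array left out. All probe sets of the 8 genes are named. From the other lists, genes that met the criteria between genotypes are named, otherwise 1 or more of the 2 with the highest signal. The genes and lists were chosen with earlier results of these data known.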

Additional observations from a re-analysis of the deposited data

Results flagged for a closer look

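Both arrays of the mutant moved one way at E18.5 and the other way at E14.5 for 3 of the 17 probe sets. Across the whole array, 4.95% of probe sets were above the control at E18.5 and below it at E14.5, and 3.75% the reverse. Mutant over control ratios of Lhx1 1450428_at were 0.87 at E18.5 and 1.16 at E14.5. The other Lhx1 probe set, 1421951_at, ran the opposite way with 1.16 and 0.813, and averaged over both the log2 ratios were 0.01 and -0.04. Those of Dkk1 1420360_at were 1.21 and 0.855, and those of Dkk1 1458232_at were 1.23 and 0.833. The difference between stages was not tested, because each pool is 1 biological replicate.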

How the results depend on the processing

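Among 288 alternative values of single ratios, 264 kept their direction and 24 were opposite or at 0, of which 22 had a main log2 ratio under 0.2 in size. The other 2 were of Lhx1, whose log2 ratio of mutant over control by its brightest probe set, -0.2 at E18.5 and 0.21 at E14.5, was 0.01 and -0.04 with the mean over probe sets. The largest move, 0.66, was that of Sim1 at E18.5, -0.01 against -0.67 with the mean over probe sets. The count of probe sets meeting the criteria between genotypes was 1 at each stage, and 0 at each with the brightest probe set only. At E14.5 it was also 0 with the 50th percentile as minimum signal and with 50 units added to each signal, and 0 to 1 when single arrays were left out, 0 without E14.5 control replicate 2. limma called 0 to 1 of the probe sets for genotype when single arrays were left out, 1 without E18.5 mutant replicate 2. For stage it called 2, against 1 with no minimum signal and 0 to 4 with single arrays left out, when its calls on the whole array ranged from 1041 to 4131 (2332 with all arrays). In an alternative chosen after seeing the data, each E18.5 mutant array was left out in turn; by construction these counts can only stay or rise. Probe sets with E18.5 mutant arrays all above E18.5 control arrays numbered 9, and 10 to 11 with 1 array left out, and those below numbered 3, and 4 to 5. Against E14.5 mutants, they numbered 8 above, and 10 to 12, and 1 below, and 3 with either array left out. The cause of the other changes was not tested. No paired analysis was possible because the arrays numbered alike in different pools share only a number and duplicates of a pool were averaged to 1 replicate. The 4 dim probe sets, of Fgf8, Dkk1, Pax8 and Bcl2, limit what their ratios can show.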

Other observations

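Other cell types of the kidney were read by their markers. Of 8 stroma markers, Pdgfra, a receptor of mesenchymal cells, met the criteria higher in E18.5 mutants, against 0.0989% of all named genes. Pdgfra had 3074 units in E18.5 mutants against 1457 in E18.5 controls. The stroma list had a median log2 ratio of 0.35 at both stages. Of 5 measured podocyte markers, 2 met the criteria lower in E18.5 mutants, against 1.75% of all named genes, Synpo with 231 units against 573 in controls and Ptpro with 314 against 663. The list was not uniform: Tcf21 had 4305 units in E18.5 mutants against 3417 in E18.5 controls, without overlap, and Nphs1 overlapped with a ratio of 0.963. Of 8 loop and distal tubule markers, 5 were lower in E18.5 mutants by the criteria, against 1.75% of all named genes. They were Umod, Slc12a1, Slc12a3, Kcnj1 and Cldn16, with ratios from 0.0257 for Umod to 0.462 for Cldn16. The salt cotransporter Slc12a1 met the criteria also at E14.5, against 0.0715% of all named genes, with 118 units in mutants against 287 in controls. These values come from 1 pool per condition and carry no test.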
